A study of Rattus norvegicus with 24 samples.

Results

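Blood gene expression of rats that received both lipopolysaccharide (LPS) and a beta-glucan diet (LPS-G1) was compared with that of healthy rats that received neither (C-G0), to ask what still differed from the healthy state. These groups hold 8 of the 24 arrays of the series, 4 each, chosen by their sample titles and not by any measured value. All were male Sprague-Dawley rats, and no genetic change is given for any of them. Their given age of 8 weeks is not stated to be that at sampling, which came after 6 weeks of feeding. LPS-G1 rats were injected with LPS at 10 mg per kg, by the study's methods 2 times with a week between. They ate a diet with G1, the oat beta-glucan of high molecular weight, for 6 weeks. C-G0 rats ate the same semi-synthetic diet without beta-glucan, and by the study's methods were injected with saline, also 2 times with a week between. Each array held RNA from the whole peripheral blood of a single rat in Cy3 beside a pool of RNA from all groups in Cy5, the common reference. Blood was drawn at the end of feeding. The methods describe the injections after the division into groups at the beginning, without giving their day within the 6 weeks. The time between LPS and sampling is therefore not known. The 2 groups differ in both LPS and diet, whose parts in a difference cannot be told apart in this comparison. The levels in LPS-G0 (LPS, control diet) and C-G1 (saline, G1 diet) are therefore given beside the main results.

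LPS is a wall component of Gram-negative bacteria that Toll-like receptor 4 recognises through the adaptor MyD88, which leads to NF-kB and AP-1 activity and to cytokine production. Cereal beta-glucans are dietary fibres, and fungal and cereal beta-glucans can be bound by the receptor dectin-1, which signals through Syk and Card9. Whole blood RNA is a mixture in which red cell precursors and reticulocytes, neutrophils, lymphocytes, monocytes and platelets all take part. In such a mixture fewer cells of a type and less RNA per cell cannot be told apart.

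The sequences of 7 probes of named genes are shown 5′ to 3′ as deposited with the arrays, with rn4 positions. Those of Jund and of the Spink2 probe called below are not among them. The Gzmb and LOC102553861 probes are set side by side because these granzyme genes are near-identical, with the bases that differ in capitals. The Spink2 and Gzmb probes shown are the second probes of those genes, not the ones that gave their main values below. The others are from genes whose groups did not overlap. No gene annotation of rn4 was used here, so exons and untranslated regions are not given.
Spink2, second probe (chr14:33249417-33249476, plus strand): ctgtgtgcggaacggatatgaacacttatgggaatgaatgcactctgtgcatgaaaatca
Hp (chr19:39443156-39443215, minus strand): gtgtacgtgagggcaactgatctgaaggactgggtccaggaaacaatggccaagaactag
Cntnap2 (chr4:75440103-75440162, plus strand): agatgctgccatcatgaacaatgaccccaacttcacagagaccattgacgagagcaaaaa
Ube2c (chr3:155802226-155802557, plus strand): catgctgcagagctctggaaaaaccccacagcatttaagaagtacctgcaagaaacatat
Stfa2l3 (chr11:66324700-66324759, plus strand): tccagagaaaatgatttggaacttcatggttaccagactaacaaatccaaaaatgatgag
Gzmb (chr15:35196479-35196538, minus strand): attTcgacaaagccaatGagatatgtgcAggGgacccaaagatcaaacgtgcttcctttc
LOC102553861 (chr15:35062560-35062619, minus strand): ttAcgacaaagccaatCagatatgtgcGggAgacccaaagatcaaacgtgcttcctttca
The last 2 probes align over 59 bases with 4 differences, so RNA of either gene may bind to both.

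Between 7786 and 15385 of 30367 probes were well above background in Cy3 on each of the 8 arrays, both extremes being C-G0 arrays (3 and 4). Array 1 of C-G0 stood apart, with an SD of 0.52 log2 units around its group mean across the tested probes, against 0.24 to 0.34 on the other 7. Of 38 gene lists, it had the lowest mean of the 8 arrays for 26 and the highest for 7. Spread was larger in C-G0 (median SD 0.36 log2 units per probe) than in LPS-G1 (0.22). The label of blood was borne out by markers of most cell types. Of the genes on the array, 27 of 29 red cell, 15 of 20 T cell and 16 of 22 cytotoxic and natural killer (NK) cell genes were tested. For platelets it was 13 of 17, for monocytes 9 of 16, for B cells 8 of 14 and for neutrophils only 7 of 20. Over the whole array 9766 of 30367 probes were tested. All values below are log2 ratios of rat over reference RNA, and a change is LPS-G1 minus C-G0. The dyes were read from the labels, with rat RNA in Cy3. The study's methods name Cy5 instead, and that reading would turn every sign. With rat RNA in Cy3, the mean of Ube2c was -1.64 in LPS-G1 and 0.86 in LPS-G0. That of Gzmc was 0.54 in LPS-G0 and -0.77 in C-G0. The study reports these directions too, with Ube2c lower in LPS-G1 than in LPS-G0 and Gzmc higher in LPS-G0 than in C-G0. In 95.3% of 7074 bright probes the spread between rats was larger in Cy3 than in Cy5.

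Few differences from the healthy rats passed the adjusted test. Of 9766 probes tested with limma, Spink2 was the only called probe (0.0102%), rising at least 2-fold at an adjusted p under 0.05. It entered the test only through LPS-G1, the group where it was high. Among probes bright on all 8 arrays the 1 called probe was a lower one, Cntnap2. At any fold 2 probes passed (0.0205%), Spink2 and the falling Jund. Before adjustment, p was under 0.05 for 1279 probes (13.1%), 684 higher (7%) and 595 lower (6.09%). A change of 2-fold or more was seen in 38 of these (0.389% of all tested), of which 21 were higher and 17 lower. The balance of directions depended on the processing. Among probes bright on all 8 arrays, 3 were higher and 9 lower at 2-fold, and 489 and 580 at any fold. With normexp these were 2 and 6, and 572 and 680, and with each array centred on its median 15 and 19, and 532 and 766. The 4 LPS-G1 arrays did not overlap with the 4 C-G0 arrays for 405 probes (4.15%), with LPS-G1 higher for 2.89% of all tested probes and lower for 1.26%. The median change over all tested probes was 0.03, and 53.5% of them had a positive change. Of the tested probes, 2290 were bright on all arrays of LPS-G1 but not of C-G0, and 58 the reverse. Among the 38 probes, 19 entered the test only through LPS-G1, 7 only through C-G0, and 12 were bright on all 8 arrays. The number called rested on single arrays: without C-G0 array 4 it was 25 (11 higher, 14 lower), and at any fold 129 passed (21 higher, 108 lower).

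**Figure D1:**
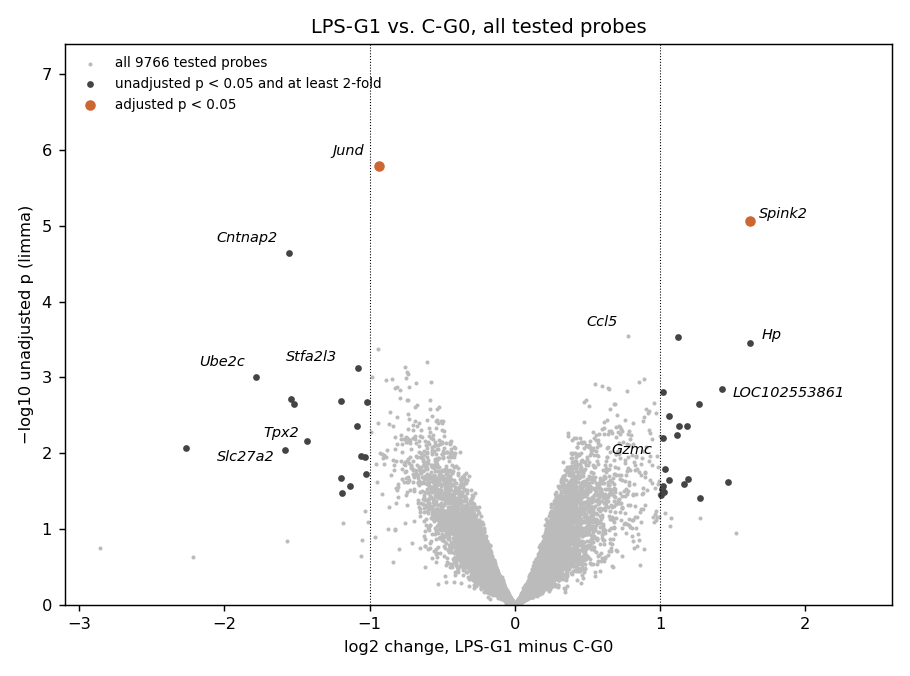
Change (x axis, log2, LPS-G1 minus C-G0) against the −log10 of limma's unadjusted p (y axis) for all 9766 tested probes, with dotted lines at 2-fold. Jund and Spink2 are the only probes at an adjusted p under 0.05, and Cntnap2 is next.

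Jund, a subunit of the transcription factor AP-1, fell below the healthy level. Its probe (chr16:19239707-19239766, minus strand) read 0.85, 0.64, 0.49 and 0.45 on the C-G0 arrays. On the LPS-G1 arrays it read -0.25, -0.47, -0.23 and -0.38. Every LPS-G1 array lay below every C-G0 array, and the spread within each group (SD 0.18 in C-G0, 0.11 in LPS-G1, n = 4) was small. The change was -0.94 ± 0.13 (SE), or 1.92-fold lower, with an adjusted p of 0.0158 (limma) and an exact permutation p of 0.0286, the smallest that 4 against 4 arrays allow. Within the 3 slides it was -0.9998, -0.83 and -0.82. The group means elsewhere were -0.02 in LPS-G0, -0.16 in LPS-G2, -0.21 in C-G1 and 0.07 in C-G2, so C-G0 had the highest mean of the 6 groups. The adjusted p in limma was 0.0737 with slide as a block and 0.238 with the 8 arrays of the 2 groups alone. With a replicate block on these 8 it was 0.39, and with the Cy3 signal alone 0.675. It was also above the threshold without C-G0 array 2 (0.0903) and without LPS-G1 array 2 (0.0661), 3 (0.0516) or 4 (0.101).

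The other immediate-early genes, which include Jund's AP-1 partners, did not share this as a group. Of 14 tested, 1 was higher and 3 lower at an unadjusted p under 0.05, Jund included, and the median change was -0.01. Over all probes the shares were 7% higher and 6.09% lower. There was 1 lower gene without C-G0 array 1. Fosb, another AP-1 subunit, read 0.99, 1.07, 0.80 and -0.20 in C-G0 and between -0.12 and 0.18 in LPS-G1 (change -0.66 ± 0.25 SE). Ier3, a stress-induced survival gene, had a change of -0.63 ± 0.22 (SE). In both genes array 4 of C-G0 was level with LPS-G1 and the other 3 were higher. Nr4a1, an orphan nuclear receptor, went the other way (0.61 ± 0.28 SE), with C-G0 array 1 at -1.84.

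Spink2, a Kazal-type inhibitor of serine proteases known from testis and from blood stem cells, rose above the healthy level. Its probe (chr14:33251631-33251690, plus strand) read -1.08, -0.81, -0.82 and -0.59 in C-G0. In LPS-G1 it read 0.80, 0.19, 1.25 and 0.93. The groups did not overlap, and the change was 1.62 ± 0.26 (SE), or 3.07-fold, with an adjusted p of 0.0427 (limma) and an exact permutation p of 0.0286. Within slides it was 1.74, 1.54 and 1.52. The probe was dim in the healthy rats, well above background on 1 of 4 C-G0 arrays and on all 4 of LPS-G1. With the background corrected by normexp the change was 0.46, with an adjusted p of 0.317 in limma. Spink2 also missed the threshold without any one of C-G0 arrays 1, 2 and 3 and LPS-G1 arrays 1, 3 and 4 (adjusted p 0.102 to 0.288). The mean was 0.31 in LPS-G0, 0.03 in LPS-G2, -0.93 in C-G1 and -0.13 in C-G2. C-G1 was thus near the level of C-G0. The probe holds the polyadenylation signal AATAAA, as do 8.39% of all probes. The second Spink2 probe, whose sequence is given above, was not well above background on any of the 24 arrays, and gave no level.

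**Figure D2:**
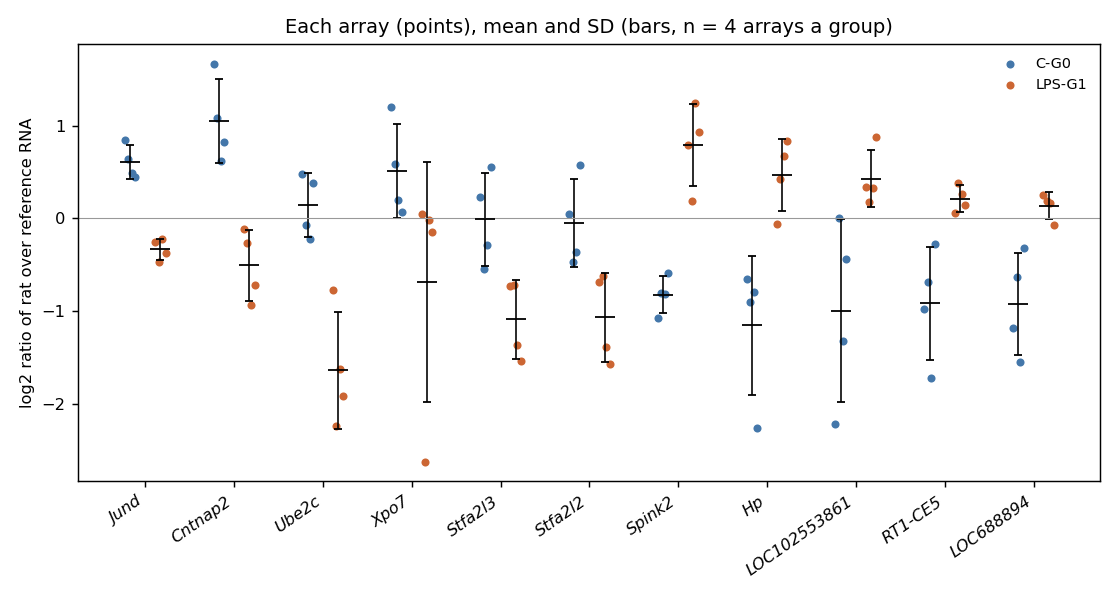
Log2 ratio on each array (points) with mean and SD (bars, n = 4) for Jund and the 10 named genes with non-overlapping groups and at least 2-fold, C-G0 in blue and LPS-G1 in orange. Jund and Spink2 have the tightest C-G0 groups, whereas Xpo7 rests on 1 LPS-G1 array at -2.62 and LOC102553861 has a C-G0 array close to 0.

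Cntnap2, a neurexin-family adhesion protein known from neurons, was the next probe, at an adjusted p of 0.0749 in limma. It read 1.67, 1.08, 0.61 and 0.83 in C-G0 and -0.12, -0.26, -0.93 and -0.72 in LPS-G1. All C-G0 arrays were above all LPS-G1 arrays, and the change was -1.56 ± 0.27 (SE), or 2.94-fold lower. Within slides it was -1.49, -1.21 and -1.55. It passed the adjusted test where fewer probes were tested (those bright on all 8 arrays, adjusted p 0.0479 in limma), with normexp (0.0266) and without C-G0 array 4 (0.0294). The means in the other groups lay between these levels, from 0.02 in LPS-G0 and 0.07 in C-G1 to 0.35 in C-G2.

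Hp encodes haptoglobin, an acute-phase plasma protein that binds free haemoglobin. It read -0.65, -0.90, -0.80 and -2.27 in C-G0 and -0.06, 0.42, 0.67 and 0.84 in LPS-G1. The groups did not overlap, although C-G0 array 4 was far below the rest, and the change was 1.62 ± 0.36 (SE), not passing the adjusted test (adjusted p 0.357, limma). The difference within slides was 0.71, 1.34 and 3.104, the last from array 4. Hp was also above C-G0 in LPS-G0 (mean -0.19), LPS-G2 (0.39), C-G1 (-0.54) and C-G2 (0.52), against -1.15 in C-G0. RT1-CE5, a class I histocompatibility gene, had a change of 1.13 ± 0.34 (SE) by its named probe and 0.01 by its other probe, which was bright on all 8 arrays. The locus LOC688894 had a change of 1.06 ± 0.31 (SE). Both named probes were dim on 2 of 4 C-G0 arrays, and neither passed the adjusted test.

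Of the genes lower in LPS-G1, the stefin A genes Stfa2l3 and Stfa2l2, inhibitors of cysteine proteases, lie near each other on chromosome 11. Stfa2l3 read 0.23, -0.55, -0.28 and 0.56 in C-G0 and -0.73, -0.72, -1.37 and -1.53 in LPS-G1 (change -1.08 ± 0.26 SE). Stfa2l2 had a change of -1.01 ± 0.28 (SE). The gap between the groups was narrow in both genes, and neither passed the adjusted test (adjusted p 0.357 each, limma). The array names both probes Stfa2l3, and the name Stfa2l2 came from the RefSeq accession. Their sequences were not compared here, and they may share RNA. Their means in the other 4 groups lay between -0.39 and 0.17, all above LPS-G1. Xpo7, a nuclear transport receptor, had a change of -1.20 ± 0.47 (SE) by its named probe, which rested on LPS-G1 array 2 at -2.62. The other 3 read 0.05, -0.02 and -0.14. Only 3 LPS-G1 arrays had a bright signal for it, so it entered the test only through C-G0, where it was higher. The other Xpo7 probe gave a similar change of -1.19 ± 0.51 (SE), with LPS-G1 array 2 at -3.025. By that probe the groups overlapped, with array 4 at 0.28 in LPS-G1 and 0.004 in C-G0.

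Among genes of cell division, those of mitosis and of DNA replication differed in direction. Ube2c, the ubiquitin-conjugating enzyme of the anaphase-promoting complex, read 0.48, -0.07, -0.23 and 0.38 in C-G0. In LPS-G1 it read -0.78, -2.25, -1.62 and -1.92, all below C-G0. The change was -1.78 ± 0.45 (SE), or 3.44-fold lower, at an adjusted p of 0.357 (limma). Ube2c differed between the other groups too, with a mean of 0.86 in LPS-G0 and -0.95 in C-G1. The spindle factor Tpx2 read 0.82, 0.11, 0.51 and 0.44 in C-G0 and 0.14, -3.1, -0.42 and -0.49 in LPS-G1 (change -1.43 ± 0.47 SE), so that array 2 set much of its change. The kinase Aurka (-0.48 ± 0.26 SE) and the anaphase activator Cdc20 (-0.47 ± 0.25 SE) had smaller changes. Of 24 mitosis genes on the array 7 were tested, 0 passed the adjusted test of limma, 2 were lower at an unadjusted p under 0.05, beside 6.09% over all probes, and 6 had a negative change, with a median of -0.47. The mean over these 7 genes was -0.12 to 0.55 on the C-G0 arrays and -1.24 to -0.16 on the LPS-G1 arrays, without overlap. It was 0.47 in LPS-G0 and -0.71 in C-G1. Ube2c is one of the 7, and the mean without it was not tested. Without C-G0 array 2 there were 4 lower mitosis genes. Of 13 tested genes of DNA replication, 9 had a positive change, with a median of 0.19. Of these 2 were higher and 0 lower at an unadjusted p under 0.05, and 0 were higher without C-G0 array 1.

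Red cell genes lay lower in LPS-G1 on balance. Of 27 tested, 9 were lower and 1 higher at an unadjusted p under 0.05 in limma, beside 6.09% lower and 7% higher over all probes. The adjusted test was passed by 0, and 22 had a negative change, with a median of -0.31. Over all tested probes 53.5% had a positive change. Gypc, the membrane protein glycophorin C, read 0.82, -0.05, -0.04 and 0.61 in C-G0 and -0.06, -1.39, -0.41 and -0.05 in LPS-G1 (change -0.81 ± 0.27 SE). Its groups overlapped narrowly, at the level of C-G0 array 2. The Kell blood group protein (Kel) had a change of -0.81 ± 0.33 (SE), with LPS-G1 array 2 at -2.16. The globin genes, looked at after their values were seen, did not follow. Hbb-b1 was the 1 higher gene, with a change of 0.35, and Hba-a1 had one of 0.13. Of 7 tested heme synthesis genes, 2 were lower. Urod, uroporphyrinogen decarboxylase, read -0.06 to 0.44 in C-G0 and -1.29 to -0.13 in LPS-G1 (change -0.74 ± 0.21 SE). Alad, which forms porphobilinogen, read 0.43 to 0.68 in C-G0, and 0.05, -0.86, 0.04 and 0.05 in LPS-G1 (change -0.69 ± 0.22 SE). The groups did not overlap for either enzyme.

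The red cell list moved with 2 arrays. Its mean was 0.51 on C-G0 array 1 and -0.64 on LPS-G1 array 2, and between -0.18 and 0.09 on the other 6. Without C-G0 array 1 the count of lower genes was 4 and the median -0.22. Without LPS-G1 array 2 they were 4 and -0.24. The group mean was -0.60 in C-G1 and 0.21 in LPS-G0, on either side of C-G0 (0.12) and LPS-G1 (-0.22).

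**Figure D3:**
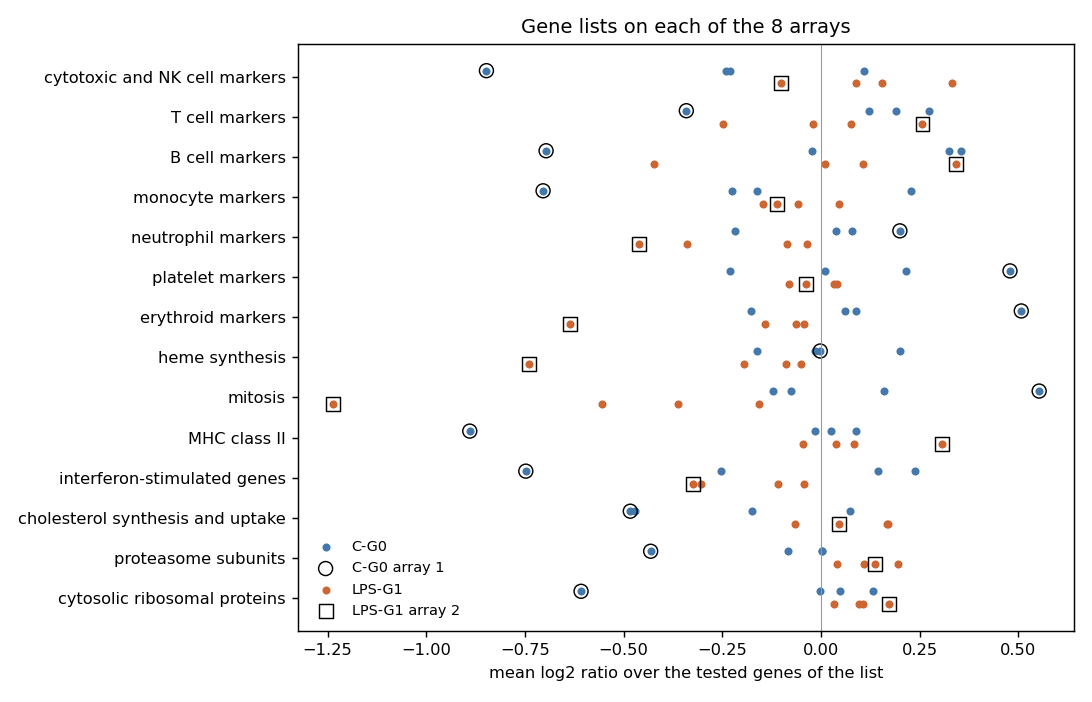
Mean log2 ratio over the tested genes of 14 lists on each of the 8 arrays (points), C-G0 in blue and LPS-G1 in orange, with C-G0 array 1 ringed and LPS-G1 array 2 boxed. C-G0 array 1 was highest for red cell markers (0.51) and mitosis (0.55) and lowest for cytotoxic (-0.85), B cell, T cell and monocyte markers, MHC class II, interferon-stimulated genes and the last 3 lists.

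Most markers of cytotoxic T cells and NK cells had a positive change, the granzymes of their granules among them. Of 16 tested, 12 had a positive change, and 9 were higher and 2 lower at an unadjusted p under 0.05 in limma. Over all probes these shares were 7% and 6.09%, and 53.5% had a positive change. The adjusted test was passed by 0, and the median change was 0.70. Gzmb, granzyme B, which starts apoptosis in target cells, read -2.58, -0.01, -1.35 and -0.34 in C-G0 and 0.07, -0.59, -0.13 and 0.47 in LPS-G1 (change 1.03 ± 0.44 SE). Its second probe, shown above, gave 0.78. Gzmc read -1.29, -0.07, -1.32 and -0.37 against 0.19, -0.60, 0.52 and 0.92 (change 1.02 ± 0.33 SE). The arrays of both genes overlapped, with C-G0 arrays 2 and 4 above LPS-G1 array 2. Gzma, a tryptase of these granules, had a change of 0.88 ± 0.31 (SE) and Gzmk of 0.82 ± 0.24 (SE). The granzyme-like locus LOC102553861 read -2.23, -0.00048, -1.32 and -0.44 in C-G0 and 0.34, 0.17, 0.33 and 0.88 in LPS-G1, without overlap (change 1.43 ± 0.38 SE, adjusted p 0.357 in limma). The probes of Gzmb, Gzmc and LOC102553861 were well above background on 2 of 4 C-G0 arrays each and entered the test only through LPS-G1, where they were higher. With normexp their changes were 0.45, 0.49 and 0.35. The chemokine Ccl5, made by the same cells, read -0.95, -0.15, -0.35 and -0.26 in C-G0 and 0.29, 0.14, 0.54 and 0.44 in LPS-G1, also without overlap (change 0.78 ± 0.17 SE, adjusted p 0.357). It passed without C-G0 array 4 (adjusted p 0.0418, limma).

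Not all genes of the cytotoxic list went this way. Cd8b, a chain of the CD8 coreceptor, and Tbx21, the transcription factor T-bet, both picked after their values were seen, had a change of -0.58 each. Without C-G0 array 1, on which the list mean was -0.85 against -0.24 to 0.11 on the other C-G0 arrays, 5 genes were higher and 1 lower, with a median of 0.38. The list mean was 0.30 in LPS-G0 and -0.05 in C-G1, against 0.12 in LPS-G1 and -0.30 in C-G0. Array 1 was also low for B cell (-0.70) and monocyte (-0.70) markers.

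The remaining blood cell lists had no member past the adjusted test. At an unadjusted p under 0.05 in limma, 7% of all probes were higher and 6.09% lower. In none of the 8 tested B cell genes was the unadjusted p under 0.05, nor in any of 9 monocyte genes. Cd79b, a chain of the B cell receptor complex, had a change of 0.60 ± 0.31 (SE) and Ms4a1 (CD20) of -0.41 ± 0.35 (SE). Of 15 T cell genes, 1 was lower, Cd3e of the T cell receptor complex (-0.50 ± 0.22 SE), and the cytokine receptor Il7r had a change of -0.51 ± 0.27 (SE). Of 7 neutrophil genes, 1 was lower, with a list median of -0.30. It was Cxcr2, the neutrophil chemokine receptor, which read 0.11 to 0.61 in C-G0 and -0.55 to 0.07 in LPS-G1, without overlap (change -0.73 ± 0.24 SE). The calprotectin subunit S100a9 had a change of -0.40 ± 0.28 (SE). Among monocyte genes Vcan had a change of 0.78 ± 0.43 (SE) and Cd68 of 0.50 ± 0.26 (SE). The Vcan probe was not bright on all 8 arrays, and its smallest change over the alternative fits was 0.16. The monocyte list median of 0.33 was -0.01 without C-G0 array 1. The platelet chemokines went apart, Ppbp with -0.67 ± 0.26 (SE) and Pf4 with 0.53 ± 0.21 (SE).

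Genes of LPS and beta-glucan sensing were tested next, with 0 members past the adjusted test of limma in any of these lists. Over all probes, 7% were higher and 6.09% lower at an unadjusted p under 0.05. Of 9 genes of LPS recognition and MyD88 signalling, 2 were higher at an unadjusted p under 0.05. They were Traf6, the ubiquitin ligase of this pathway (0.65 ± 0.24 SE), and Irak3, its inhibitory kinase (0.51 ± 0.21 SE). Irak2 had a change of 0.75 ± 0.41 (SE). Of 12 genes of beta-glucan receptors and Syk-Card9 signalling, 2 were higher and 1 lower. Plcg2, the phospholipase downstream of Syk, read -1.66, -0.04, -0.12 and -0.13 in C-G0 and 0.12 to 0.35 in LPS-G1 (change 0.72 ± 0.28 SE), and the exchange factor Vav1 had a change of 0.54 ± 0.21 (SE). The scavenger receptor Cd36 was the lower one (-0.63 ± 0.30 SE). Of 10 NF-kB subunits and inhibitors, 1 was higher, Nfkbie (0.77 ± 0.32 SE), while Nfkbia had a change of 0.24 ± 0.23 (SE). The probes of Traf6, Irak2, Plcg2, Vav1 and Nfkbie were not bright on all 8 arrays. Over the alternative fits their smallest changes were 0.15, 0.11, 0.29, 0.14 and 0.21. Without C-G0 array 1 the numbers of higher genes in these lists were 0, 0 and 0, and without C-G0 array 4 there were 4 in the first.

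Inflammasome genes were divided. Of 8 tested, 5 had a positive and 3 a negative change, with a median of 0.25, and 3 were higher at an unadjusted p under 0.05, beside 7% over all probes. The adaptor Pycard (ASC) read -0.91, 0.04, -0.30 and -0.20 in C-G0 and 0.41, 0.24, 0.11 and 0.50 in LPS-G1 (change 0.65 ± 0.18 SE). The protease Casp1 read -1.11, -0.17, -0.18 and -0.07 against 0.25, 0.21, 0.05 and 0.28 (change 0.58 ± 0.18 SE), and neither gene overlapped between the groups. The pore-former Gsdmd had a change of 0.40 ± 0.17 (SE). Without C-G0 array 1 there were 2 higher genes and the median was 0.12.

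Interferon and cytokine genes were mixed. The counts below stand beside 7% higher and 6.09% lower over all probes at an unadjusted p under 0.05. Of 20 interferon-stimulated genes, 1 was higher, the tetherin gene Bst2 (0.66 ± 0.28 SE), and 2 were lower. The lower ones were the antiviral neighbours Rsad2, viperin (-0.90 ± 0.31 SE), and Cmpk2, a mitochondrial nucleotide kinase. Cmpk2 read 0.31, 0.24, 0.18 and 0.38 in C-G0 and -0.54, -0.98, -0.19 and -0.14 in LPS-G1, without overlap (change -0.74 ± 0.18 SE). It averaged 0.28 in LPS-G0 and -0.38 in C-G1. Without LPS-G1 array 1 there were 6 lower interferon-stimulated genes. Of 8 MHC class II genes, 7 had a positive change and 1 was higher at an unadjusted p under 0.05, RT1-DMb (0.57 ± 0.18 SE). The chain RT1-Db1 had a change of 0.51 ± 0.27 (SE), and the list median of 0.37 was 0.05 without C-G0 array 1. Of 15 interleukins and receptors 0 reached an unadjusted p under 0.05, and Il2rb had a change of 0.51 ± 0.25 (SE). Of 17 TNF ligands and receptors, 3 were higher, among them the costimulatory receptor Cd40 (0.82 ± 0.27 SE) and the B cell factor Tnfsf13 (0.65 ± 0.27 SE). Only 1 was higher without C-G0 array 1.

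All 11 tested genes of cholesterol synthesis and uptake had a positive change, as had 53.5% of all tested probes. Their median was 0.23 beside 0.03 for all probes. At an unadjusted p under 0.05, 3 were higher, beside 7% over all probes. There were 3 also without C-G0 array 1 and 5 without C-G0 array 2. Pmvk, phosphomevalonate kinase, read 0.08, -0.34, -0.89 and -0.06 in C-G0 and 0.80, 0.30, 0.35 and 0.88 in LPS-G1, without overlap (change 0.89 ± 0.22 SE). Msmo1, a sterol oxidase, had a change of 0.77 ± 0.20 (SE) and Hmgcs1, which makes the precursor of mevalonate, of 0.64 ± 0.17 (SE). For all 3 the LPS-G0 mean was less than 0.2 above C-G0, by 0.18, 0.03 and 0.00, and that of C-G1 was above it by 0.57, 0.72 and 0.58. None passed the adjusted test. The Pmvk probe was not bright on all 8 arrays, and its smallest change over the alternative fits was 0.44. Of 16 fatty acid genes, 3 were higher and 2 lower (7% and 6.09% over all probes), with the transporter Slc27a2 lowest (-1.58 ± 0.54 SE). The number of higher ones ranged from 0 without LPS-G1 array 4 and 1 without C-G0 array 1 to 6 without C-G0 array 2 or 4. Slc27a2 was dim on 3 of the 4 LPS-G1 arrays and read 0.38, -2.92, -2.33 and -1.84 there, with array 1 level with C-G0. Echs1, an enzyme of beta-oxidation, had a change of 0.71 ± 0.26 (SE). Its probe was not bright on all 8 arrays either, and 0.40 was its smallest change over the alternative fits. Of 15 glycolysis genes 1 was lower, hexokinase 1 (Hk1, -0.49 ± 0.15 SE), whose groups did not overlap.

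Most proteasome subunits and ribosomal proteins had small positive changes, and 0 passed the adjusted test of limma. Of 33 proteasome subunits, 10 were higher and 0 lower at an unadjusted p under 0.05 in limma, beside 7% higher and 6.09% lower over all probes, with a median of 0.29. Psmb3, of the core particle, had a change of 0.56 ± 0.18 (SE) and the ATPase Psmc1 of 0.48 ± 0.20 (SE). The proteasome mean was -0.43 to 0.00 on the C-G0 arrays and 0.04 to 0.19 on those of LPS-G1, without overlap. Of 95 cytosolic ribosomal proteins, 11 were higher, 0 lower and 88 had a positive change, with a median of 0.21. The change was positive for 53.5% of all tested probes. Rpl26 had a change of 0.45 ± 0.17 (SE) by both of its probes. Of 55 mitochondrial ribosomal proteins 7 were higher, such as Mrpl1 (0.73 ± 0.22 SE), while the 78 oxidative phosphorylation subunits were near the share over all probes, with 7 higher and 3 lower. Among the higher ones was the complex I subunit Ndufs3 at 0.52 ± 0.18 (SE). Without C-G0 array 1 the higher genes numbered 4 for the proteasome, 4 for cytosolic and 4 for mitochondrial ribosomes. The medians were then 0.18, 0.05 and 0.11. Without C-G0 array 4 the cytosolic ones numbered 26 and the mitochondrial ones 15. The proteasome count was 4 without LPS-G1 array 4, and the cytosolic count 6 to 7 without LPS-G1 array 1, 2 or 4. The mitochondrial count was 4 without LPS-G1 array 2 or 3, and for oxidative phosphorylation 3 were higher without C-G0 array 1 and 12 without C-G0 array 4. Ribosomal protein genes have many near-identical copies, whose signals cannot be assigned with certainty.

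**Figure D4:**
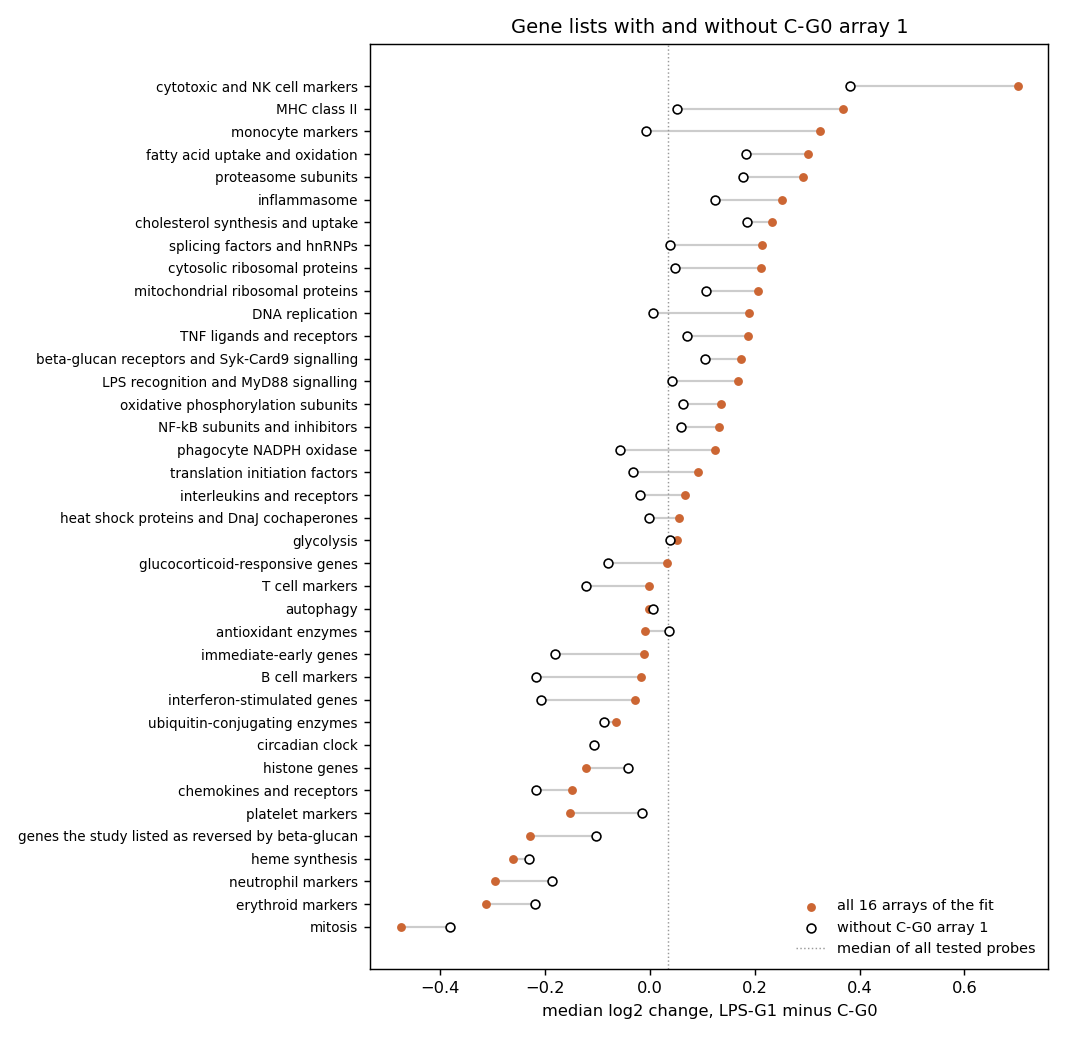
Median change (x axis, log2, LPS-G1 minus C-G0) of the tested genes of each of the 38 lists, with all arrays (orange) and without C-G0 array 1 (open), with the median of all tested probes as a dotted line. The cytotoxic list moved from 0.70 to 0.38 and MHC class II from 0.37 to 0.05, while heme synthesis stayed near -0.26 (-0.23) and mitosis near -0.47 (-0.38).

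The remaining lists had few members at an unadjusted p under 0.05, beside 7% higher and 6.09% lower over all probes. Of 23 antioxidant enzymes 1 was higher and 0 lower, with Sod2, the mitochondrial superoxide dismutase, at -0.46 ± 0.23 (SE) and catalase (Cat) at -0.43 ± 0.27 (SE). Of 20 autophagy genes 2 were higher and 2 lower. Atg13, of the initiation complex, read -1.01, -0.08, 0.09 and 0.18 in C-G0 and 0.44, 0.52, 1.19 and 0.73 in LPS-G1, without overlap (change 0.93 ± 0.27 SE), and its mean was -0.71 in LPS-G0 and 0.18 in C-G1. Of 28 histone genes 2 were higher and 3 lower, with Hist3h2ba at -0.83 ± 0.22 (SE). Of 24 ubiquitin-conjugating enzymes 4 were lower, Ube2c included, and 0 higher. The change was positive in 11 and negative in 13, with a median of -0.06. The list mean was -0.21 to -0.05 on the LPS-G1 arrays and -0.04 to 0.01 on those of C-G0, without overlap. Ube2c, at -1.92 on LPS-G1 array 4, is part of this mean, and the mean without it was not tested. Of the 38 lists, 2 had a higher and 2 a lower mean in LPS-G1 without overlap. The 2 lower lists were this one and mitosis, which both hold Ube2c, so they are not separate results. Of 13 chemokines and receptors 2 were higher and 2 lower. Of 45 translation initiation factors 4 were higher and 1 lower, and of 43 splicing factors 2 and 1. Of 29 heat shock proteins and cochaperones and 6 subunits of the phagocyte NADPH oxidase 0 reached an unadjusted p under 0.05 in limma, and of 3 circadian clock genes 1 was lower. Several of these counts differed when a single array was left out. Of 7 glucocorticoid-responsive genes 1 was higher, the stress gene Ddit4 (0.78 ± 0.29 SE). The probes of Atg13 and Ddit4 were not bright on all 8 arrays. Over the alternative fits their smallest changes were 0.37 and 0.47. Of 34 genes that the study listed as reversed by beta-glucan, a choice made on some of these arrays, 8 were bright enough to be tested here. At an unadjusted p under 0.05, 0 of the 8 differed from C-G0 in limma, and the median was -0.23. Among them the kinase Sik1 had a change of 0.44 ± 0.24 (SE) and Mbp, myelin basic protein, of -0.37 ± 0.33 (SE) by its brightest probe and 0.19 by another.

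**Figure D5:**
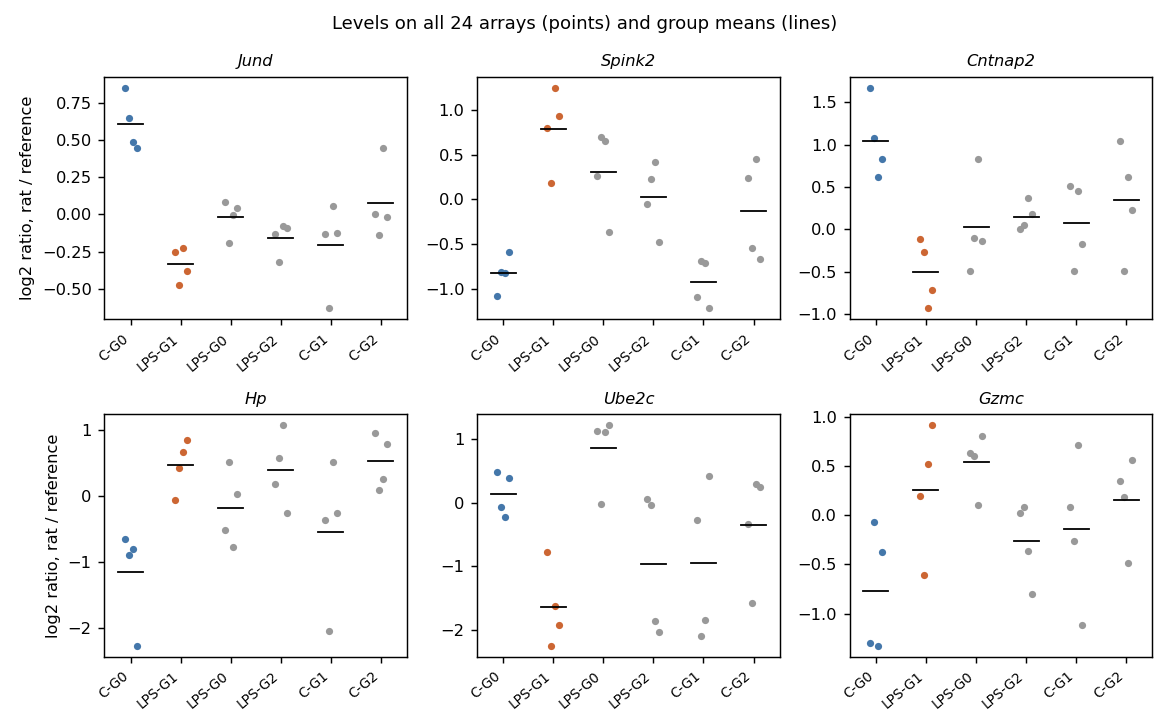
Log2 ratio (y axis) on all 24 arrays (points) with group means (lines) for 6 genes, C-G0 in blue, LPS-G1 in orange and the other groups in grey. C-G0 has the highest mean for Jund (0.61) and Cntnap2 (1.05) and the lowest for Hp (-1.15) and Gzmc (-0.77), and LPS-G0 has the highest for Ube2c (0.86).

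Set beside each other, the groups that share 1 treatment with LPS-G1 differed from C-G0 by unequal amounts in the genes above. These comparisons use the same C-G0 arrays and are given as values only. For Jund the difference was -0.62 in LPS-G0 and -0.81 in C-G1, against -0.94 in LPS-G1. For Cntnap2 it was -1.02, -0.97 and -1.56. For Spink2 it was 1.14, -0.10 and 1.62, and for Gzmc 1.30, 0.62 and 1.02. For Ube2c LPS-G0 differed by 0.71 and C-G1 by -1.09, and for Xpo7 by 0.18 and -1.64. In Stfa2l3 both were small, at -0.22 and -0.17.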

How the data were processed

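Blood RNA of single rats was hybridised with a pooled reference on 24 two-colour rat arrays, 4 in each of 6 groups. The authors deposited intensity values per channel from Agilent Feature Extraction, background-subtracted and dye-normalised by Lowess (version 10.10.1.1 in the file headers, 10.7.3.1 in the labels), and the log10 ratio of Cy5 over Cy3. Here the sign was turned and values taken as log2. Outlier spots were left out and spots of a probe averaged. Probes whose Cy3 signal was marked as well above background throughout LPS-G1 or throughout C-G0 were tested with limma 3.58.1 in R 4.3.3 on the arrays of these 2 groups together with LPS-G2 and LPS-G0, which share the estimate of spread, two-sided, with Benjamini-Hochberg adjustment. A probe was called at 2-fold or more with an adjusted p under 0.05. Single genes also had an exact permutation test over 70 arrangements. A second characteristic of LPS-G0 replicates 3 and 4 names them as controls, against their titles, by which they were grouped. Simulated data with 200 changed probes gave 71% recovery at 2-fold, with 8 unchanged probes also passing. Their noise was drawn independently for each probe and array, without deviations shared across an array like that of C-G0 array 1. The 71% therefore does not measure recovery in the real data.

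Genes were named where the groups did not overlap and the change was 2-fold or more, called or with p under 0.05 before adjustment (up to 12 a direction, by the probe with the largest change). From each list the rule took up to 4 genes of largest change, by their brightest probe, and all tested genes of the study's reversed list. The text gives those on which a comparison turns, and some genes of the red cell list are not reported here. Members, lists and rules were chosen with earlier results of these data known. Of 30367 probes, 18643 were named through RefSeq accessions. Each array's number limits the precision. Alternatives changed the arrays, filter, background correction, centring, slide, weights and test.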

Additional observations from a re-analysis of the deposited data

Results flagged for a closer look

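In 150 groups of 4 arrays (75 genes in C-G0 and in LPS-G1), 9 had a highest or lowest array far from the other 3. Chance alone flags about 1 in 20 groups. LPS-G1 replicate 2 was far below its group for Xpo7 (-2.62, next lowest -0.14), Alad (-0.86, next 0.04), Rsad2 (-1.57, next -0.38) and Gzmk (-0.24, next 0.44). C-G0 replicate 1 was far below its group for Plcg2 (-1.66, next -0.13), Casp1 (-1.11, next -0.18) and Mrpl1 (-1.35, next -0.26). C-G0 replicate 4 was far below for Hp (-2.27, next -0.90), and C-G0 replicate 3 for Pf4 (-1.20, next -0.40).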

How the results depend on the processing

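Against 1 called probe, the count was 0 in limma with the 8 arrays alone, with a replicate block on them, with slide as a block, with no filter, with array weights and with Cy3 alone, and 0 by the methods' analysis of variance. Unadjusted p under 0.05 at any fold then gave 744, 1209, 1063, 2215, 1405, 633 and 311 probes. Without the LPS-G0 replicates of conflicting labels, an alternative added after the data were seen, it was 3. Leaving out each array gave 0 to 25. Against 2 probes at an adjusted p under 0.05, those settings gave 0, 0, 0, 1, 1, 0, 1 and 4, and leaving out each array 0 to 129. Against 38 probes at an unadjusted p and 2-fold, no filter gave 349, the filter on all 8 arrays 12, normexp 8 and the analysis of variance 14. Leaving out each array gave 27 to 134, with 106 without C-G0 array 2 and 70 without LPS-G1 array 1. Centring on the array median gave 15 higher and 19 lower, against 21 and 17. The replicate numbers are no pairs, as same-numbered arrays correlated at 0.26, 0.18, -0.07 and 0.33 and not every array best with its own number. Spink2 lost its call in 14 of 20 settings and Jund in 8 of 21. Ms4a1 ranged from -0.71 to 0.06 when each array was left out, turning to 0.059 without C-G0 array 3. It was the only one of 75 genes to turn in any of these fits. Background signal limits Spink2 and other dim probes most.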

Other observations

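Without C-G0 array 4, Cntnap2, Ccl5, Fosb and Ier3 passed the adjusted test of limma, at adjusted p-values of 0.0294, 0.0418, 0.0378 and 0.0463. Their changes were then -1.63, 0.84, -0.95 and -0.85. Over the alternatives, the adjusted p of Ccl5 ranged from 0.0418 to 1 and that of Cntnap2 from 0.0236 to 1.

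The probe with the most negative change among the 38 was that of Cacfd1, a gene outside the naming rule and picked after its values were seen. It read -4.08 and -3.85 on LPS-G1 arrays 1 and 2, and 0.04 and 0.05 on arrays 3 and 4. In C-G0 it read -0.75, 0.64, 0.92 and 0.41. The arrays of LPS-G1 thus fell into separate levels. These did not follow the slides, since arrays 2 and 3 shared slide 2. Only 2 LPS-G1 arrays had a bright signal for Cacfd1. The gene has 2 probes, and the values are from 1 of them.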
